A study of Vitis vinifera with 4 samples.

Results

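NAC61 is a grapevine (Vitis vinifera) transcription factor of the NAC family, whose binding to genomic DNA was measured in vitro by DAP-seq. The binding events described here are the solitary ones, at which no other event of the same chromosome had its summit within 100 kb. Of the 8558 events deposited, 8389 were on the 19 chromosomes of the 12X.v2 assembly and 169 on sequence not anchored to a chromosome, and 279 of the anchored events (3.33%, 95% Wilson confidence interval from 2.96% to 3.73%) were solitary. They are called lone events, and the remaining 8110 anchored events are called other events. DNA fragments came from young leaves of cv. 'Syrah' fruiting cuttings, pooled before extraction. They were offered either to HALO-tagged NAC61 (HALO-NAC61, 2 libraries) or to a GST-HALO fusion without a transcription factor (control, 2 libraries), and both proteins were made in rabbit reticulocyte lysate. The 4 libraries ended in a single list with 1 value per event for both HALO-NAC61 libraries together, so the spread between replicates could not be computed for any event.

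NAC proteins are found only in plants. They bind DNA as dimers through a conserved N-terminal domain, typically at sequences with a CACG core, and members of the family take part in senescence, fruit ripening and responses to drought and pathogens. In DAP-seq the DNA carries no nucleosomes, so an event marks a fragment that the protein retained more often than the control did. It does not mark a site known to be occupied in a berry or a leaf.

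The peak caller learned short enriched sequences (k-mers) while it placed the events, and the study's table of peaks pairs them with events and with the closest gene. The copy used here lists 1879 events in alphabetical order of gene annotation, from annotations that start with a sign or a digit to those that start with D, and 69 lone events (24.7%) and 1788 other events (22.0%) are among them. A k-mer was given for 19 of the 69 lone events, with 15 different k-mers. Those that recurred or that lay at a gene named in the text are shown here, from 5′ to 3′, since they are the sequences through which a lone event can be set beside the rest. Capitals mark a match on either strand to the 7 bp motif that the study derived from its strongest peaks, that is to CACG or CAAG followed by C or T, then by A or C, and then by A, or to the reverse complement of such a sequence. The orientation of a k-mer relative to the chromosome is not given.
k-mer at 3 lone events on chromosomes 3, 5 and 11: aTTGCTTGt
k-mer at 2 lone events on chromosomes 2 and 7: aTGACGTG
k-mer at 2 lone events on chromosomes 12 and 19: gTTGCGTG
k-mer near the cytochrome P450 gene CYP79A2: gaTTGCGTGt
k-mer nearest to the cytochrome P450 gene CYP82C4: aTGGCGTGt
k-mer in the gene for COP9 signalosome subunit 6a: ggTTGCGTG
k-mer in the terpene synthase gene TPS07: tTTGCGTG
k-mer nearest to the terpene synthase gene TPS119: aTGGCGTG
k-mer in the aquaporin gene BETA-TIP: cTTGCGTGt
k-mer before the transporter gene PDR25: tagcgtgt
k-mer before the gene CRR2: gattgcgta
k-mer in a disease resistance gene on chromosome 12: gnttgcgt

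The motif was in the k-mer of 15 of the 19 lone events that had one (78.9%, 95% Wilson confidence interval from 56.7% to 91.5%), and in that of 493 of 722 other listed events (68.3%, from 64.8% to 71.6%). The 4 lone k-mers without it were those of PDR25, of CRR2, of the chromosome 12 gene and of an event on chromosome 5 (attgcgta). The 4 letters GCGT were present, on either strand, in 14 of the 19 (73.7%) and in 520 of the 722 (72.0%). The letters GCTT were present in 4 of the 19 (21.1%, 95% Wilson confidence interval from 8.51% to 43.3%). Among the 722 they were in 67 (9.28%, from 7.37% to 11.6%), so the intervals overlapped. All 15 lone k-mers recurred at other listed events, and the most frequent, aTTGCTTGt, was given for 46 of these. The peak caller learned its k-mers over lone and other events together, so this recurrence largely follows from the method. Motif and k-mers were learned from events of this list, so a match is a description and not independent support for a site.

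Lone events lay on every chromosome but in unequal numbers, and they were most frequent where events were sparse. The share of events that were lone was highest on chromosome 15, with 19 of 277 events (6.86%, 95% Wilson confidence interval from 4.43% to 10.5%), and it was close to this value on chromosomes 16 (6.48%), 12 (6.36%), 9 (6.15%) and 3 (6.08%). Chromosome 8 had the lowest share, with 7 of 596 events (1.17%, from 0.570% to 2.40%), followed by chromosomes 1 (1.72%) and 18 (2.02%). The intervals of neighbours in this order overlapped. Chromosomes 15 and 8 were picked as its extremes, and adjacent events share a distance, so their difference was not tested. The 6 chromosomes with the highest share, which include chromosome 19 (5.23%), were also the 6 with the fewest events per Mb, between 12.5 and 16.0 against a median of 18.3, and they held 116 lone events (41.6%) and 21.8% of the other events. Across the 19 chromosomes, Spearman's rho between the lone share and the events per Mb was -0.94. Both measures come from the same positions, so this relation partly follows from how the events were chosen.

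**Figure D1:**
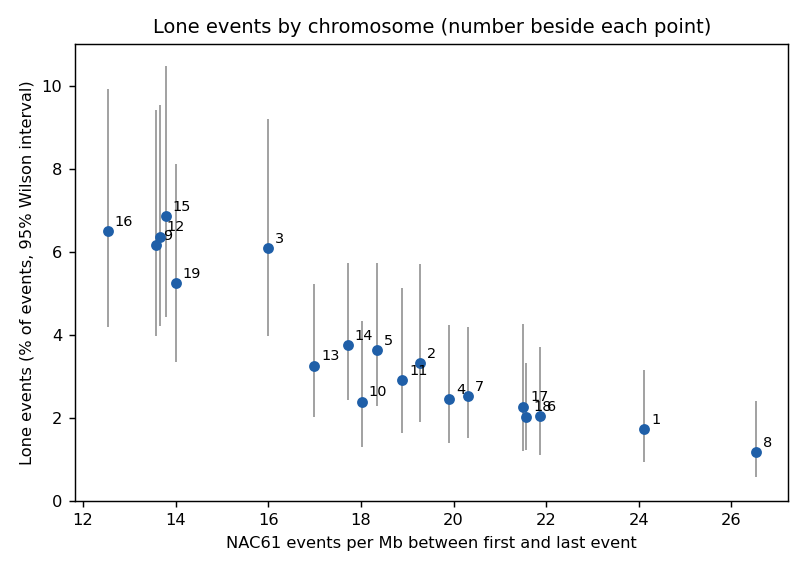
Share of events that were lone (vertical axis, % with 95% Wilson confidence interval) against NAC61 events per Mb of the stretch that the events span (horizontal axis), 1 point per chromosome with its number. Chromosomes 15, 16, 12, 9 and 3 sit at the upper left, above 6%, and chromosome 8, with 26.5 events per Mb, at the lower right with 1.17%.

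The deserts are described here by the gaps longer than 100 kb. No number of such gaps expected at this density of events was computed. Of the 8370 gaps between consecutive anchored events, 1183 (14.1%) were longer than 100 kb, and together they spanned 252.9 of 456.2 Mb (55.4%). Sequence reached only by ambiguously mapped reads could not receive an event, so unbound sequence cannot be told apart from such sequence here. A lone event bordered 464 of these gaps, and 86 lay between a pair of lone events. The 4 longest gaps in the list each had a lone event at 1 end. They measured 1758 kb on chromosome 6, 1690 kb on chromosome 18, 1562 kb on chromosome 2 and 1514 kb on chromosome 7. The next, of 1329 kb on chromosome 16, had none at either end. The distance from a lone event to the nearest other event had a median of 145.5 kb (quartiles 117.1 and 207.3 kb) and reached 782.5 kb, whereas the median for other events was 11.2 kb, a contrast that the choice of members fixes. Within 1 Mb on either side, a lone event had a median of 20 other events (from 1 to 74) and an event of the remainder had 46 (from 5 to 101). The rule leaves lone events no neighbour within 100 kb, so their lower number also follows in part from the choice of members.

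Along the chromosomes, the share of events that were lone was highest in the middle section and the one after it. When the stretch from the first to the last event was divided into 5 equal sections, 1.28% of the events in section 1 were lone (30 of 2336), 2.21% in section 2, 6.28% in section 3 (73 of 1162), 6.01% in section 4 (77 of 1282) and 3.34% in section 5. The 3 inner sections together held 192 lone events (68.8%) and 51.2% of the other events. Section 2 held 15.1% of the lone and 23.0% of the other events, and section 5 held 20.4% and 20.3%. By chromosome, the median position of lone events ranged from 24.0% of the stretch on chromosome 8 to 81.3% on chromosome 17. Sections 3 and 4 also held the fewest other events (13.4% and 14.9%). Both counts come from the same positions, so the higher share there partly follows from how the events were chosen. Chromosome lengths and centromeres were not used, and 8 lone events were the first or the last event of their chromosome, so that only 1 of their distances is known.

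**Figure D2:**
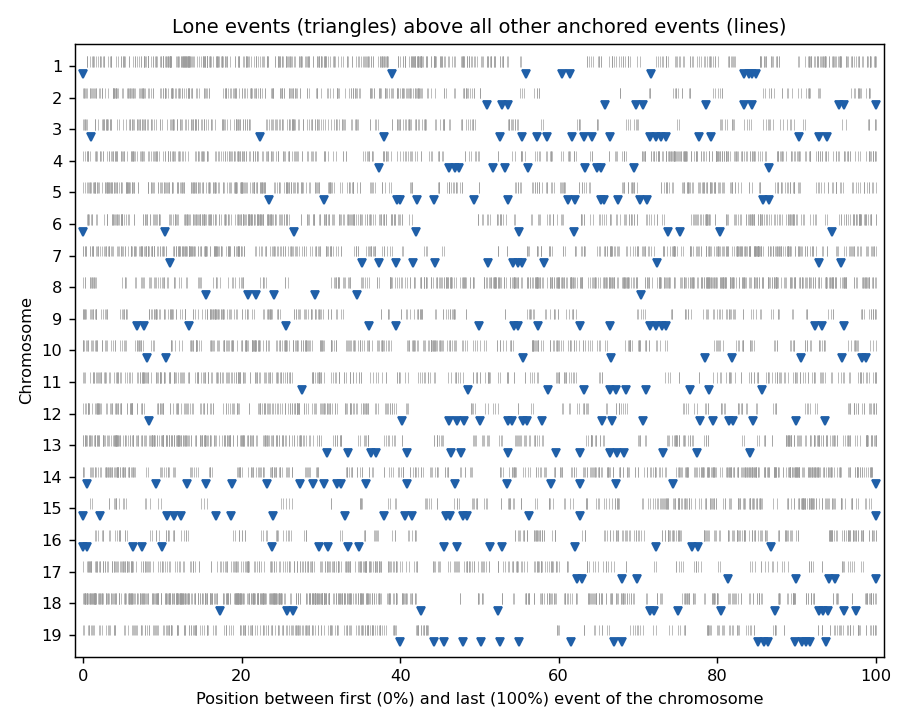
Position of each lone event (triangles) and each other anchored event (grey lines) on the 19 chromosomes, as a percentage of the distance between the first and the last event. Over all chromosomes, sections 3 and 4 of 5 equal sections held the fewest other events (13.4% and 14.9%), and 68.8% of the lone events lie in the 3 inner sections.

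Lone events stood singly or in runs. Of the 279, 144 (51.6%) had another lone event as their direct neighbour, in 58 runs of 2 or more, and 135 stood alone between events with closer neighbours. Any neighbour of a lone event is already more than 100 kb away from it on that side, so this share follows in part from the rule and was not compared with another. There were 7 runs of 4 or more lone events, which held 30 of them, on chromosomes 1, 3, 9, 11, 16 and, with 2 runs, 19. Signal stands for the HALO-NAC61 reads that the peak caller assigned to an event, and its median was 72.0 reads for lone events beside another lone event and 78 reads for the 135 that were not (95% intervals of the medians from 67.2 to 78 and from 68 to 87 reads), so both medians lay within each other's interval or at its edge.

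The longest run held 6 lone events on chromosome 19, with summits from 10946870 to 13580021, and stretched over 3.99 Mb from the last event before it to the first after it. The first, at 10946870, lay 268 bp inside the gene for subunit 6a of the COP9 signalosome, a complex that regulates ubiquitin ligases, with a signal of 74 reads. Its −log10 q-value, the adjusted significance of the enrichment over the control, was 10.9. The next, at 11234533, lay 1661 bp upstream of the start of CYP72A15, a cytochrome P450 gene, with 124.9 reads (95% Poisson interval from 104.0 to 148.8, counting error only) and a −log10 q-value of 21.8. The 3 events in the middle of the run were weaker. They had signals of 39, 45 and 73 reads, their −log10 q-values were 3.67, 4.86 and 2.05, and the second of these, at 12396441, lay 3327 bp upstream of an ankyrin repeat gene. The last, at 13580021, had a signal of 157 reads (from 133.4 to 183.6), its −log10 q-value was 8.33, its nearest neighbours were 595.3 and 1160 kb away, and its assigned gene CYP72A1, another cytochrome P450 gene, began 23.2 kb further on. Strong and weak events thus stood side by side in the same desert.

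A run of 4 on chromosome 16 (summits from 10755787 to 12475892) had signals of 72, 88, 94 and 159 reads. The third, at 12108362, lay 714 bp inside a gene for subunit 1 of the CCR4-NOT complex, which shortens the poly(A) tails of mRNAs. The fourth, at 12475892, lay 978 bp inside a gene annotated as apocytochrome b. Cytochrome b is a core subunit of respiratory complex III, and in plants it is normally encoded in the mitochondrial genome. With 159 reads this event ranked 601 by signal among all 8558 events, whereas by significance (−log10 q-value 6.51) it was only at position 4667. Control reads are not given per event, and the reason for the unlike ranks was not tested.

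Lone events had fewer reads than other events. Their median signal was 74 reads, with a range from 37 to 451 (quartiles 55 and 99.5, 95% interval of the median from 70 to 81), and that of the other events was 90 reads, with a range from 37 to 2511 (quartiles 70.8 and 114, interval from 89 to 91). Both groups began at the lowest signal of the list, and their ranges overlapped over the whole span of the lone events. The difference of 16 reads corresponds to a log2 ratio of medians of -0.28. Of the lone events, 52 (18.6%) had fewer than 50 reads, against 5.35% of the other events, and 98 (35.1%) reached the median of the other events. Divided by signal into 10 classes of similar size, the events of the lowest class (37 to 56 reads) were lone in 8.53% of cases (73 of 856), those of the second in 3.95% and those of the highest in 1.81% (15 of 828). The lower level was present on most chromosomes, since the median of the lone events was below that of the other events on 16 of 19, with chromosomes 8, 10 and 14 as the exceptions. Among events whose −log10 q-value was 5 or more, with lone events found anew, the log2 ratio was -0.072. This minimum itself removes mainly events of low signal, and of the 374 events that were then lone 162 belonged to the 279. No test was made, because events of a pooled list are not replicates and their signals come from the binding list that also defined the lone events.

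Beyond 25 kb the median signal was lower in each more isolated class, on both sides of the 100 kb limit, but it was also lower among the most crowded events. The median was 92.0 reads for events whose nearest neighbour was 0.5 to 5 kb away (n = 2113) and for those at 5 to 25 kb (n = 3336). It was 88 reads at 25 to 50 kb (n = 1418), 81 at 50 to 100 kb (n = 754), 78 at 100 to 200 kb (n = 205, 95% interval of the median from 72 to 87) and 68.5 beyond 200 kb (n = 74, from 62 to 75). Events within 0.5 kb of another had a median of 82.6 reads. Signals that were not whole numbers occurred at 26 lone events (9.32%) and at 14.9% of the other events. Their part in the difference was not tested.

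**Figure D3:**
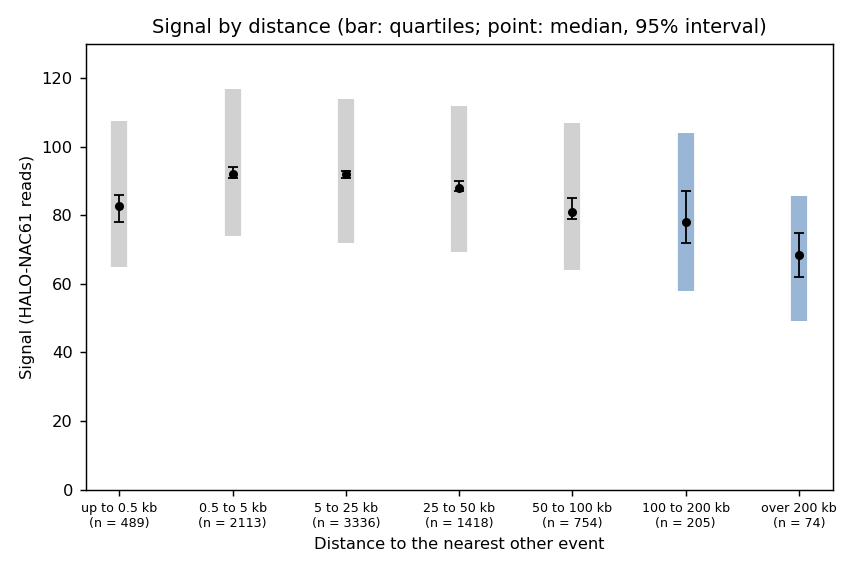
Signal in HALO-NAC61 reads (vertical axis) by distance to the nearest other event (horizontal axis, with the number of events in each class). Bars span the quartiles, points are medians with their 95% interval, and blue marks both classes of lone events. Medians decline from 92.0 reads at 0.5 to 25 kb to 68.5 reads beyond 200 kb, with wide overlap of the quartiles.

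The −log10 q-value of the lone events against the control had a median of 5.89 (quartiles 3.60 and 10.2, range 2.01 to 67.5), and that of the other events a median of 7.15 (quartiles 4.14 and 12.1). A −log10 q-value of at least 5 was reached by 162 of 279 lone events (58.1%, 95% Wilson confidence interval from 52.2% to 63.7%), against 66.7% of all anchored events, and a value of at least 3 by 226 (81.0%), against 87.1%. At a given signal the median −log10 q-values of the groups were close in most classes. Between 50 and 75 reads the median −log10 q-value was 4.20 for 88 lone and 3.97 for 2003 other events, between 100 and 150 reads it was 10.8 for 56 and 11.7 for 2391, and from 150 reads upwards it was 23.4 for 14 and 23.2 for 727. The class from 75 to 100 reads, with 7.48 for 69 lone and 6.51 for 2555 other events, was the exception, and in it 84.1% of the lone and 65.7% of the other events reached a −log10 q-value of 5. The lower −log10 q-values of lone events as a group thus went with their lower signal, except in the class from 75 to 100 reads.

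Some lone events were nevertheless among the strongest of the list. The highest signal was at 6653120 on chromosome 8, with 451 reads (95% Poisson interval from 410.3 to 494.6). Its −log10 q-value was 67.5, and among the 8558 events it came at position 54 in signal and at position 42 in significance. The nearest events were 782.2 and 453.6 kb away, so a strong event stood in a large desert of the chromosome with the fewest lone events. The next 4 by signal had between 227 and 241 reads. They lay at 11593953 on chromosome 4 (241 reads), at 22510284 on chromosome 14 (232 reads), at 7827788 on chromosome 8 (229 reads) and at 19779172 on chromosome 7 (227 reads). The intervals of these 4 overlap, so their order is not resolved. The second on chromosome 8 had a −log10 q-value of 50.5, against 20.5 for that on chromosome 14 with nearly as many reads. By q-value, an event at 15602377 on chromosome 13 entered the first 5 with only 122 reads (−log10 q-value 34.9), together with 1 at 7852648 on chromosome 3 (190 reads, 31.7). Genes for these events were not in the listed part.

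At the other end of the scale, the most isolated event of all, at 15269102 on chromosome 9, had only 39 reads (95% Poisson interval from 27.7 to 53.3) and a −log10 q-value of 3.30, with its neighbours 847.4 and 782.5 kb away. The next 4 by isolation all belonged to the run of 6 on chromosome 19. The members nearest to the 100 kb limit had their closest neighbour 100072 bp away (130 reads) and, for a pair of adjacent events on chromosome 15, 100314 bp away (38 and 77 reads). Just outside it were events at 99762, 99475 and 99455 bp, with 88, 109 and 77 reads, so the signals on both sides of the limit overlapped.

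Relative to genes, the listed lone events lay farther away than the listed other events. The summit was more than 3 kb upstream or downstream of the assigned gene at 28 of 69 lone events (40.6%, 95% Wilson confidence interval from 29.8% to 52.4%) and at 454 of 1788 other events (25.4%, from 23.4% to 27.5%). It was in the promoter, taken as 3 kb upstream to 100 bp downstream of the start of the gene, at 13 lone events (18.8%, from 11.4% to 29.6%) and 29.3% of the other events. It was inside the gene at 20 (29.0%, from 19.6% to 40.6%) and 36.1%, and within 3 kb downstream at 8 (11.6%) and 9.23%. The share farther than 10 kb from the gene was 29.0% (20 events) against 9.12%. The median distance to the gene was 1.64 kb and 0.457 kb, with events inside a gene counted as 0. Like the signal, the share of farther events changed gradually, from 22.7% at a neighbour distance of 0.5 to 5 kb to 31.3% at 50 to 100 kb, 36.4% at 100 to 200 kb (16 of 44) and 48.0% beyond 200 kb (12 of 25). The table is ordered by annotation and holds the beginning of the alphabet, so these shares describe the listed events and no enrichment was tested.

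**Figure D4:**
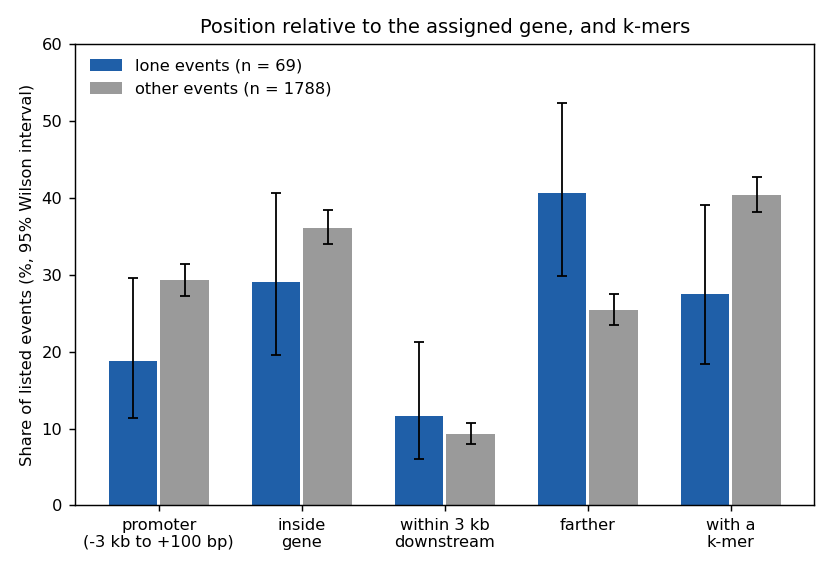
Share of listed events (vertical axis, % with 95% Wilson confidence interval) by position of the summit relative to the assigned gene, and share with a k-mer, for 69 lone events (blue) and 1788 other events (grey). The farther class holds 40.6% of the lone events against 25.4%, and 27.5% of the lone events have a k-mer against 40.4%.

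A k-mer was less frequent at lone events, with 19 of 69 (27.5%, 95% Wilson confidence interval from 18.4% to 39.0%) against 722 of 1788 (40.4%, from 38.1% to 42.7%). The intervals overlapped at their edges. The difference varied with the signal. Between 75 and 150 reads 4 of 32 lone events (12.5%, from 4.97% to 28.1%) and 406 of 1084 other events (37.5%) had a k-mer, whereas below 75 reads the counts were 13 of 33 (39.4%, from 24.7% to 56.3%) and 241 of 536 (45.0%). From 150 reads upwards the order was the opposite, with 2 of 4 lone events (50%) and 75 of 168 other events (44.6%). The lone events with a k-mer were not the stronger ones. Their median signal was 63 reads (95% interval of the median from 47 to 92), against 84 reads for those without (from 72.1 to 96), so the intervals overlapped. Among the other listed events the order was the same, with 86 reads with a k-mer and 91.05 without. Across distance classes the share did not change evenly, with 22.7% (10 of 44) at 100 to 200 kb and 36% (9 of 25) beyond 200 kb.

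The 13 lone promoter events each had a different gene. No gene of a listed lone event had a further listed event, which the distance of over 100 kb to the next event makes nearly certain. The median of their signals was 69 reads, between 37 and 138. The strongest, at 12635435 on chromosome 9, lay 552 bp upstream of a gene for an aminotransferase of class I and II, with 138 reads at a −log10 q-value of 5.84. SAUR32, of the small auxin up-regulated RNA family of early auxin-responsive genes, had an event 91 bp upstream at 17152512 on chromosome 4 (133 reads, −log10 q-value 10.2), 227.4 kb away from the nearest other event. A cysteine proteinase gene, a member of a class of protein-degrading enzymes, had an event 94 bp upstream at 256821 on chromosome 3 (117 reads, 17.8). Together with CYP72A15 these were the 4 strongest promoter events, and apart from the aminotransferase they had the highest −log10 q-values of the 13.

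Other promoter events lay at genes of different kinds. An intracellular immune receptor gene of the CC-NBS-LRR class on chromosome 19 had an event 626 bp upstream (106 reads, −log10 q-value 6.04). AHP4, a phosphotransfer protein of cytokinin signalling in Arabidopsis, had its event, with 101 reads, at 102.6 kb from the nearest other event, close to the limit. The event before the gene for 1,4-beta-mannan endohydrolase, an enzyme that cuts hemicellulose of the cell wall, lay only 4 bp from the start of the gene at 33129333 on chromosome 18 (69 reads, 5.21). The most isolated promoter event was that of UGT-like7, annotated as an anthocyanidin 3-O-glucosyltransferase, an enzyme type that adds glucose to anthocyanidins. It lay 1104 bp upstream at 17103913 on chromosome 12, with 495.9 kb to the nearest event on 1 side and 1221 kb on the other, and had 49 reads (95% Poisson interval from 36.3 to 64.8) and a −log10 q-value of 5.28.

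The remaining 5 promoter events were weak. They belonged to a cyclic nucleotide-binding transporter (2540 bp upstream, 60 reads), to CRR2, which acts in chloroplast RNA processing in Arabidopsis (2254 bp, 59.2 reads), to an aspartyl aminopeptidase (936 bp, 51 reads), to the ABC transporter PDR25 (97 bp, 39 reads) and to Chromatin remodeling 17 (1931 bp, 37 reads). Their −log10 q-values were between 2.14 and 6.94, and that of the aspartyl aminopeptidase was the lowest. Of the 13 promoter events, CYP72A15 with gTTGCGTG, CRR2 with gattgcgta and PDR25 with tagcgtgt had a k-mer.

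The 20 lone events inside genes had a median signal of 84 reads (from 41 to 159), above the 69 reads of the promoter events, and among the other listed events the order was the same, with 95 and 85 reads. After apocytochrome b, the strongest was at 10159277 on chromosome 2, 231 bp inside CRR4, which is needed for chloroplast RNA editing in Arabidopsis (135 reads, −log10 q-value 14.2). The event 993 bp inside BKI1, whose Arabidopsis counterpart inhibits the brassinosteroid receptor kinase, had a signal of 118 reads (−log10 q-value 10.9). Cyclic nucleotide-gated ion channel 17 had an event 20.2 kb inside the gene (104 reads), the deepest of the 20. The genes for an ADP-ribosylation factor-like protein (2004 bp inside, 101 reads) and for DEX1, which Arabidopsis needs to pattern the pollen wall (8275 bp, 98 reads), came next.

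Below these were the chromosome 12 disease resistance gene (658 bp inside, 92 reads, −log10 q-value 12.4) and 1,4-dihydroxy-2-naphthoate octaprenyltransferase, an enzyme of phylloquinone synthesis (9258 bp, 85 reads). BETA-TIP, an aquaporin of the vacuolar membrane, also had 85 reads at 633 bp inside the gene, but its −log10 q-value was 4.20 against 8.58 for the former. Its event at 102940 was the first of chromosome 16, so that the distance of 105.2 kb is known on 1 side only. An acyltransferase gene annotated after a taxol pathway enzyme of yew (83 reads, −log10 q-value 12.9) and ACA13, a calcium pump of the plasma membrane (78 reads, 12.2), had higher −log10 q-values at similar signals. The event in CF4, annotated after a tomato resistance gene (73 reads, 3.73), and that in a gene for an activating signal cointegrator (72.1 reads, 2.05) had lower ones. Signals between 72.1 and 85 reads inside genes thus came with −log10 q-values from 2.05 to 12.9.

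Among the 28 farther events the median distance to the gene was 14.95 kb and the median signal 73 reads. The longest was 81.5 kb, from an event at 14851152 on chromosome 2 (95 reads, −log10 q-value 9.09) to BRXL1, a relative of the Arabidopsis root growth gene BREVIS RADIX. Next were 57.5 kb to a carbonic anhydrase gene on chromosome 11 (74 reads, 13.2) and 54.9 kb to an ankyrin gene on chromosome 19 (87 reads, 8.96). For such events the assigned gene is the closest one by position, and no link in function was measured.

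Grouped by function, the 69 genes fell into 15 of the functional categories in the study's table, and 7 had none. Transport and Cellular Process held 9 genes each (13.0%), close to their shares among other listed events (14.1% and 12.5%). Secondary Metabolic Process also held 9 (13.0%, 95% Wilson confidence interval from 7.02% to 23.0%), against 5.26% (94 of 1788, from 4.32% to 6.39%), Generation of Energy 5 (7.25%) against 1.40%, and Response to Stress 4 (5.80%) against 1.96%. Transcription Factor Activity held 2 (2.90%) against 7.77%. By words in the annotation, 4 lone events had a cytochrome P450 gene (5.80% against 3.24%), 4 a gene annotated as disease resistance (5.80% against 1.62%) and 4 a transporter (5.80% against 5.43%). None had a transcription factor of the families searched (0 of 69, with a Wilson limit of 5.27%, against 2.46%). No listed event, lone or other, had a transposon-related gene. The listed part ends at annotations that start with D. The words searched for transposons, and the names of most of those transcription factor families, start with later letters. Such genes are listed only where the annotation starts otherwise, so these low counts do not give their share among all lone events. The counts are small, the intervals wide and the groups were not tested.

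The secondary metabolism group consisted mainly of cytochrome P450 and terpene synthase genes, both large families in grapevine. The strongest lone event with a listed gene lay 1.64 kb downstream of CYP79A2 at 17083761 on chromosome 6, with 219 reads (95% Poisson interval from 191.0 to 250.0), a −log10 q-value of 18.2 and the k-mer gaTTGCGTGt. The event assigned to CYP82C4, at 15002128 on chromosome 7, had 99 reads but lay 34.5 kb from the gene. Terpene synthases, which make the carbon skeletons of aroma terpenes, were looked at after their values had been seen. They accounted for 3 lone events and for 2 of the 1788 other listed events. The 3 lone ones were listed under annotations that start with a sign. Terpene synthases whose annotation starts with a letter after D are not in the listed part, so these counts cover only a part of the family. TPS10 and TPS07, both annotated as germacrene D synthases, had adjacent lone events on chromosome 18, 197.9 kb apart. The event at 32237848 (94 reads, −log10 q-value 4.41) lay 10975 bp upstream of TPS10, and the event at 32435768 (70 reads, 11.9) lay 2362 bp inside TPS07, with the k-mer tTTGCGTG. TPS119, a terpineol synthase gene on chromosome 13, was 23.4 kb away from an event with 47 reads and the k-mer aTGGCGTG.

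Ankyrin genes, also chosen after their values had been seen, accounted for 5 lone events (7.25%) and for 2.57% of the other listed events. The lone ones on chromosomes 5 and 19 were mostly weak, with 39, 41, 45, 45.9 and 87 reads, and the event with 41 reads, 135 bp inside an ankyrin repeat gene on chromosome 5, had the k-mer aTTGCTTGt.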

How the data were processed

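Per the labels and the study's methods, reads of 2 HALO-NAC61 and 2 GST-HALO libraries were trimmed with fastp 0.21.0, aligned with Bowtie2 and filtered on mapping quality, so sequence reached only by ambiguously mapped reads could not receive an event. GEM called both replicates jointly on nuclear chromosomes. The authors deposited 1 list of intervals of 201 bp, with a signal (HALO-NAC61 reads assigned to the event), a score derived from it, which was not used, and the p-value and q-value against the control, as −log10. Library totals were not used here. An event was lone when its nearest other summit (start plus offset) on the chromosome was more than 100 kb away. Genes, their coordinates and k-mers came from the study's table of peaks, and distances were recomputed from the summits. Wilson and Poisson intervals, and binomial intervals of medians, cover counting error only, and PCR reads are not independent molecules. Members, gene groups and alternatives were chosen with earlier results of these data known.

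Named were the 5 lone events highest by signal, by q-value and by isolation, those next to the limit, the 13 promoter events, the 15 strongest inside genes and the 3 farthest from their gene. Distance and class functions were tested on simulated data. Python 3.11.15, numpy 2.4.6, pandas 2.3.3, scipy 1.17.1 and matplotlib 3.10.9 were used.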

Additional observations from a re-analysis of the deposited data

How the results depend on the processing

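No paired analysis was possible because the list holds 1 pooled value per event and no column per replicate, so no replicate could be left out either. With a limit of 75 kb there were 505 lone events, and with 150 kb 134, with a median signal of 69.5 reads and a log2 ratio of medians of -0.37. When events with a −log10 q-value below 3 were removed first, lone events had a median signal of 84 reads and a median −log10 q-value of 7.095. With a minimum of 5 these medians were 98 reads and 9.37, and the log2 ratio was -0.072. This minimum itself removes mainly events of low signal, and it left 374 lone events, of which 162 belonged to the 279. The ratio stayed below 0 under all 8 alternatives. Counting events within 500 bp as 1 locus, leaving out chromosome ends, adding the unanchored sequence or measuring from interval edges gave between 271 and 312 lone events. The lone share of chromosome 15 was 12.3% at 75 kb and 4.69% at 150 kb, and that of chromosome 8 was 2.68% and 0.336%. Shares by gene class and of k-mers stayed within their intervals under the alternatives tried. The depth of the control at each event was not analysed here.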
